A study of Mus musculus with 18 samples.

Results

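Aminoacyl-tRNA synthetases, the enzymes that join each amino acid to its transfer RNA, were followed by RNA sequencing in FDH cells, immortalised mouse fetal liver cells, as these cells were moved into IL-3. The set holds 36 genes chosen by symbol, 20 for cytosolic enzymes and 16 for mitochondrial enzymes whose symbols end in 2, among 23329 genes in all. All 36 had rows in the files, all 36 passed the filter on low counts that left 11942 genes, and every one had 10 or more reads in each of the 18 libraries. The cells were from BALB/c embryos (E14.5) without βc and βIL-3, through which the receptor for IL-3 signals, and every line used had been transduced with βc. The P248L line also carried IL3Rα, the IL-3-binding subunit, with the amino acid change P248L, and the wild-type line carried unchanged IL3Rα. Each line was sampled at passages 10 to 12 in 3 states. Untreated cells grew with doxycycline and 100 ng/ml mouse SCF (stem cell factor), and the others were washed free of that medium and kept for 2 or 5 days with 100 ng/ml IL-3. Neither SCF nor doxycycline is listed for the IL-3 medium, so the effect of IL-3 and that of their removal cannot be told apart. With 1 line per receptor, receptor and line cannot be told apart, and the labels name neither the promoters of the transduced subunits nor whether a line is a clone.

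Cytosolic synthetases supply the ribosomes of the cytosol, and 8 of the 20 genes encode members of the multi-tRNA synthetase complex, which is held together by the scaffold proteins AIMP1, AIMP2 and EEF1E1. The mitochondrial enzymes are also encoded in the nucleus and charge the tRNAs that translate the few proteins encoded by mitochondrial DNA, while Gars and Kars each make both a cytosolic and a mitochondrial form. Synthetases fall into class I and class II by the fold of their catalytic domain. Many cytosolic synthetase genes are targets of ATF4, the transcription factor made when uncharged tRNA or other stress activates eIF2α kinases, through C/EBP-ATF response elements. Growing blood progenitors depend on a steady supply of charged tRNA for protein synthesis.

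The 6 groups held 3 libraries each, with 13844612 to 27181962 reads in genes, and levels are given as reads of a gene per 1000000 reads (CPM) after TMM scaling. A gene was called at an adjusted p under 0.05 in edgeR's quasi-likelihood test over all tested genes. Between libraries of 1 group the chi-square of the counts per degree of freedom was 5.02 to 208.71, above sampling noise throughout, the largest values being those of P248L untreated library 1 (148 and 209 against its companions) and P248L day 2 library 3 (193 and 97.1). Nothing in the labels tells whether a group's 3 libraries came from different cultures, and p-values therefore reflect the spread among libraries, which may be technical. In the blood cell marker list, 5 of 6 genes were in the files (Ptprc, Cd34, Kit, Cd48 and Lyl1), summing to 903 to 2290 CPM. The sum does not tell which of these genes changed between groups. In the hepatocyte list Alb and Ttr had 0 reads in every library, and its 5 genes together stayed between 0.153 and 14.3 CPM, the highest at wild-type day 2. The erythroid list, with 4 of 5 genes in the files, summed to 0.185 to 6.94 CPM with Hba-a1 at 0, the stromal list to 0 to 12.0 CPM with Col1a2 and Dcn at 0 and its highest sums in untreated P248L cells, and the endothelial list, which includes genes that blood progenitors also express, to 67.3 to 173 CPM with Emcn at 0. The part of these levels in the results was not tested.

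The regions around annotated transcription starts were searched for the letters TGATGNAA, the core of a C/EBP-ATF response element, at which ATF4 is known to act. RefSeq promoter windows on GRCm38.p6, the release of the mm10 build named for the files, from 250 bases before to 50 bases after a transcription start, were at hand for 27 members, 13 cytosolic and 14 mitochondrial, with 28 windows since Aars2 had 2. The core was present on either strand in 5 of 13 cytosolic genes (38.5%), in 0 of 14 mitochondrial genes and in 4.51% of the 27025 genes of the table. The 5 genes were Aars, Gars, Iars, Tars and Yars. All 5 stand in a list of 13 cytosolic genes known as ATF4 or amino acid response targets, of which 8 had a window. Of the cytosolic genes outside that list, 5 had a window and 0 held the core. The matches are given here with 30 bases on each side where the window allowed it, 5′ to 3′ along the gene's strand and with the matching 8 bases in capitals, which read as the reverse complement of the core where it lies on the other strand.
Yars (chr4:129189876-129189943, plus strand): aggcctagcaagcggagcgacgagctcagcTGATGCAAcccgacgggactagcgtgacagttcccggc
Gars (chr6:55037941-55038008, plus strand): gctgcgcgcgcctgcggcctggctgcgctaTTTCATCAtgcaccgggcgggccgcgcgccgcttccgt
Iars (chr13:49682107-49682174, plus strand): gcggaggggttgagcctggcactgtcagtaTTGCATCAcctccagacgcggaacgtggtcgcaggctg
Tars (chr15:11399636-11399703, minus strand): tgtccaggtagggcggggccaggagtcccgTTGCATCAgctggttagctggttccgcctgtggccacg
Aars (chr8:111033700-111033888, plus strand): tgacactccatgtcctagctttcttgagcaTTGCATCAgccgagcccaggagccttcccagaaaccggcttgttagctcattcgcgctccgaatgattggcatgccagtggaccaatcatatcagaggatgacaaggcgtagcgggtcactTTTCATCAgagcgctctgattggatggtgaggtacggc
Aars held 2 matches and the others 1 each. The Aars window (111033592 to 111033891) lay inside the span of the gene (111027778 to 111055569), not upstream of it. The E-box CACGTG, a palindrome bound by MYC among other factors that overlaps none of these cores, was present in Aars, Farsb, Iars, Tars and Ears2, which is 30.8% of these cytosolic and 7.14% of these mitochondrial genes, against 8.09% of all genes in the table. A match is only a run of letters in the window, and nothing was measured about binding there.

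Per kilobase of the longest annotated transcript, cytosolic synthetase transcripts stood well above mitochondrial ones in each group. The median cytosolic level was 56.0, 79.2 and 39.0 CPM per kilobase in P248L cells untreated, at day 2 and at day 5, and 57.9, 63.5 and 27.6 CPM per kilobase in wild-type cells at the same times. The mitochondrial medians were 7.79, 6.87 and 3.53 CPM per kilobase in P248L cells and 6.51, 5.92 and 2.92 CPM per kilobase in wild-type cells. Nars, the asparaginyl-tRNA synthetase, had the highest cytosolic level in all 6 groups, from 102 CPM per kilobase at wild-type day 5 to 224 CPM per kilobase at P248L day 2. Ears2, the mitochondrial glutamyl-tRNA synthetase, had the lowest mitochondrial level in all 6 groups, between 0.474 and 1.51 CPM per kilobase.

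The summed level of each class gives the outline of the time course. The 20 cytosolic genes summed to 4300, 4350 and 4170 CPM in untreated P248L libraries, 5660, 5450 and 6100 CPM at P248L day 2 and 3220, 3420 and 3440 CPM at P248L day 5. They summed to 3960, 4220 and 4110 CPM in untreated wild-type libraries, 5030, 4830 and 5090 CPM at wild-type day 2 and 2100, 2100 and 2010 CPM at wild-type day 5. In both lines day 2 was the high point and day 5 the low point, no library of 1 time overlapped those of another time of the same line, and all 3 P248L libraries at day 5 lay above all 3 wild-type libraries. Without Lars2, which is treated separately, 15 mitochondrial genes summed to 499, 533 and 519 CPM in untreated P248L libraries, 583, 551 and 555 CPM at P248L day 2 and 275, 281 and 281 CPM at P248L day 5. They summed to 490, 499 and 492 CPM in untreated wild-type libraries, 435, 439 and 471 CPM at wild-type day 2 and 242, 241 and 245 CPM at wild-type day 5. Here day 5 was low in both lines, and at day 2 the P248L libraries lay above their untreated libraries while the wild-type libraries lay below theirs. A share of the library's reads cannot tell fewer transcripts per cell from fewer cells that make them.

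**Figure D1:**
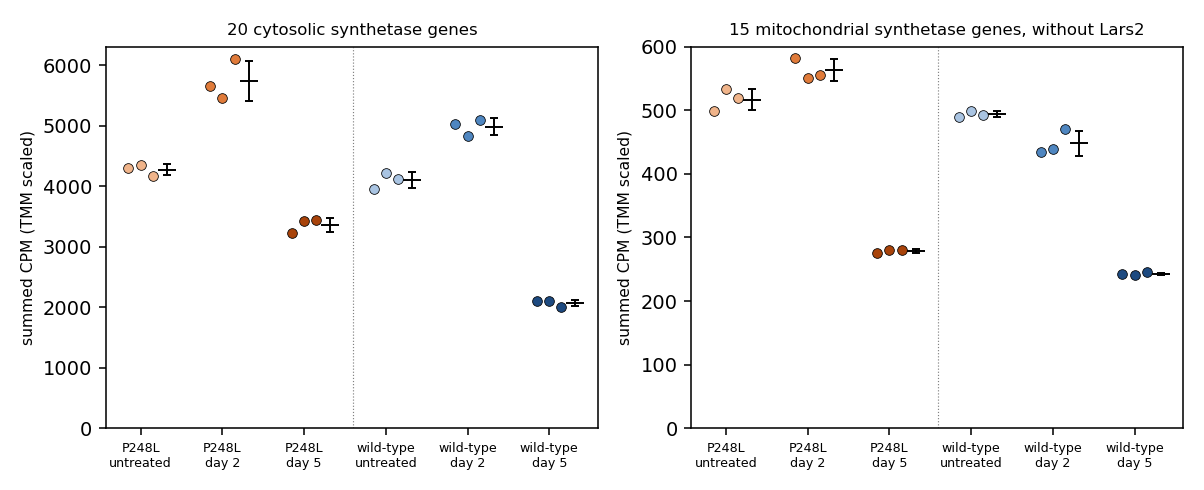
Summed CPM of the 20 cytosolic (left) and 15 mitochondrial synthetase genes without Lars2 (right), 1 point per library with the mean and SD of 3 libraries as a bar beside the points. The cytosolic sum at day 5 was 3220 to 3440 CPM in P248L cells and 2010 to 2100 CPM in wild-type cells.

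At day 2 in IL-3 most cytosolic synthetase transcripts were above their untreated level in both lines. In P248L cells 13 of 20 were higher, 1 was lower and 6 did not pass at day 2 against untreated, where 18.5% of all tested genes were called higher and 21.5% lower, and the median log2 fold change was 0.55 against -0.01 over all genes. In wild-type cells 12 of 20 were higher, 1 was lower and 7 did not pass, beside 22.1% of all genes called higher and 21.8% lower, with a median of 0.33 against 0.00 over all genes. Without 1 library the wild-type calls of Eprs (5 libraries), Nars (2), Sars (2) and Yars (3) were lost, with adjusted p up to 0.083. The blood cell markers summed to 1190 to 1460 CPM at P248L day 2 and 2190 to 2290 CPM untreated, and to 903 to 1040 CPM at wild-type day 2 and 1820 to 1840 CPM untreated, and their part was not tested. Hars, the histidyl-tRNA synthetase, stood at 147, 134 and 124 CPM in untreated P248L libraries, 215, 193 and 213 CPM at P248L day 2 and 79.1, 78.3 and 77.9 CPM at P248L day 5. Hars stood at 116, 125 and 115 CPM in untreated wild-type libraries, 224, 211 and 227 CPM at wild-type day 2 and 67.3, 63.3 and 59.2 CPM at wild-type day 5. Its rise at day 2 was 0.62 ± 0.10 in P248L and 0.90 ± 0.10 in wild-type cells on the log2 scale (adjusted p = 9.7e-05 and 8.9e-07), with no overlap of libraries in either line. Dars, the aspartyl-tRNA synthetase and a member of the complex, stood at 279, 254 and 253 CPM in untreated P248L libraries, 313, 337 and 522 CPM at P248L day 2 and 225, 251 and 249 CPM at P248L day 5. Dars stood at 243, 237 and 257 CPM in untreated wild-type libraries, 361, 366 and 371 CPM at wild-type day 2 and 106, 109 and 109 CPM at wild-type day 5. Its day 2 log2 fold change was 0.57 ± 0.15 in P248L and 0.58 ± 0.15 in wild-type cells (adjusted p = 0.0045 and 0.0037), and the highest value of all was that of P248L day 2 library 3.

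Vars, the valyl-tRNA synthetase, which binds the elongation factor complex eEF1, was the single cytosolic member called lower at day 2. It stood at 341, 371 and 308 CPM in untreated P248L libraries, 309, 233 and 147 CPM at P248L day 2 and 90.2, 103 and 96.5 CPM at P248L day 5. Vars stood at 231, 256 and 237 CPM in untreated wild-type libraries, 150, 134 and 164 CPM at wild-type day 2 and 42.2, 36.9 and 38.2 CPM at wild-type day 5. The day 2 log2 fold change was -0.57 ± 0.18 in P248L and -0.69 ± 0.18 in wild-type cells (adjusted p = 0.02 and 0.0052). The P248L libraries at day 2 spread over more than those of any other group and overlapped the untreated ones. That call was lost without P248L untreated library 2 (adjusted p = 0.088), without day 2 library 2 (0.056) and without day 2 library 3 (0.067). Qars, the glutaminyl-tRNA synthetase of the complex, stood at 227, 218 and 204 CPM in untreated P248L libraries, 206, 175 and 161 CPM at P248L day 2 and 155, 153 and 162 CPM at P248L day 5. Qars stood at 223, 245 and 226 CPM in untreated wild-type libraries, 198, 192 and 202 CPM at wild-type day 2 and 130, 133 and 123 CPM at wild-type day 5. Its day 2 values did not pass in either line (log2 fold change -0.26 ± 0.10 in P248L and -0.23 ± 0.10 in wild-type cells, adjusted p = 0.056 and 0.082), and it was lower at day 5 in both lines.

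In P248L cells the day 2 counts depended on the fit. With the replicate number as a block in a fit of only P248L untreated and day 2, 9 cytosolic members were higher and 0 lower, and of the mitochondrial members 1 was higher and 1 lower. The fit of only the libraries compared, with no block, called 5 cytosolic members higher. In wild-type cells 6 cytosolic members were higher with no scaling beyond library size. With that setting the median of all genes moved by -0.17, and 36.0% of all called genes were higher, against 50.4% with TMM. The share of all genes called was not counted in these or later alternative fits, so their counts cannot be set against it.

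Fewer mitochondrial than cytosolic synthetases passed at day 2. In P248L cells 4 of 16 were higher and 2 lower, with a median log2 fold change of 0.01, and 18.5% of all genes were higher and 21.5% lower. Without P248L day 2 library 3 the 4 became 2, and the fit of only the libraries compared called 0 higher and 0 lower. In wild-type cells 4 of 16 were lower, with a median of -0.18, beside 21.8% of all genes, so these shares are near those of all genes. None was called higher in wild-type cells by edgeR, 0 had an unadjusted p under 0.05 in that direction and 0 were called by DESeq2. Pars2, the prolyl-tRNA synthetase, stood at 13.3, 13.3 and 13.3 CPM in untreated P248L libraries, 11.0, 10.8 and 8.24 CPM at P248L day 2 and 5.14, 5.83 and 5.15 CPM at P248L day 5. Pars2 stood at 12.4, 14.7 and 12.2 CPM in untreated wild-type libraries, 7.41, 8.72 and 7.31 CPM at wild-type day 2 and 5.67, 5.57 and 4.69 CPM at wild-type day 5. Its day 2 fall was -0.40 ± 0.15 in P248L and -0.75 ± 0.15 in wild-type cells on the log2 scale (adjusted p = 0.036 and 0.00049), and the P248L call was lost without any of 10 single libraries (adjusted p from 0.052 to 0.12). Vars2, the valyl-tRNA synthetase of mitochondria, stood at 30.7, 33.0 and 29.4 CPM in untreated P248L libraries, 35.1, 25.8 and 14.9 CPM at P248L day 2 and 16.9, 15.8 and 16.1 CPM at P248L day 5. Vars2 averaged 26.2 ± 1.76 CPM in untreated wild-type libraries, 15.9 ± 1.46 CPM at wild-type day 2 and 8.74 ± 0.341 CPM at wild-type day 5 (SD, n = 3 each). It was lower at wild-type day 2 (-0.72 ± 0.20, adjusted p = 0.0081) and did not pass at P248L day 2 (-0.29 ± 0.20, adjusted p = 0.27). Mars2, the methionyl-tRNA synthetase of mitochondria, stood at 19.2, 22.8 and 24.5 CPM in untreated P248L libraries, 28.1, 32.2 and 30.3 CPM at P248L day 2 and 8.52, 8.52 and 8.10 CPM at P248L day 5. Mars2 stood at 23.2, 18.3 and 20.2 CPM in untreated wild-type libraries, 21.1, 22.6 and 26.1 CPM at wild-type day 2 and 7.68, 7.45 and 6.94 CPM at wild-type day 5. It was higher at P248L day 2 (0.45 ± 0.13, adjusted p = 0.013), and its wild-type value of 0.18 ± 0.13 did not pass (adjusted p = 0.3).

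**Figure D2:**
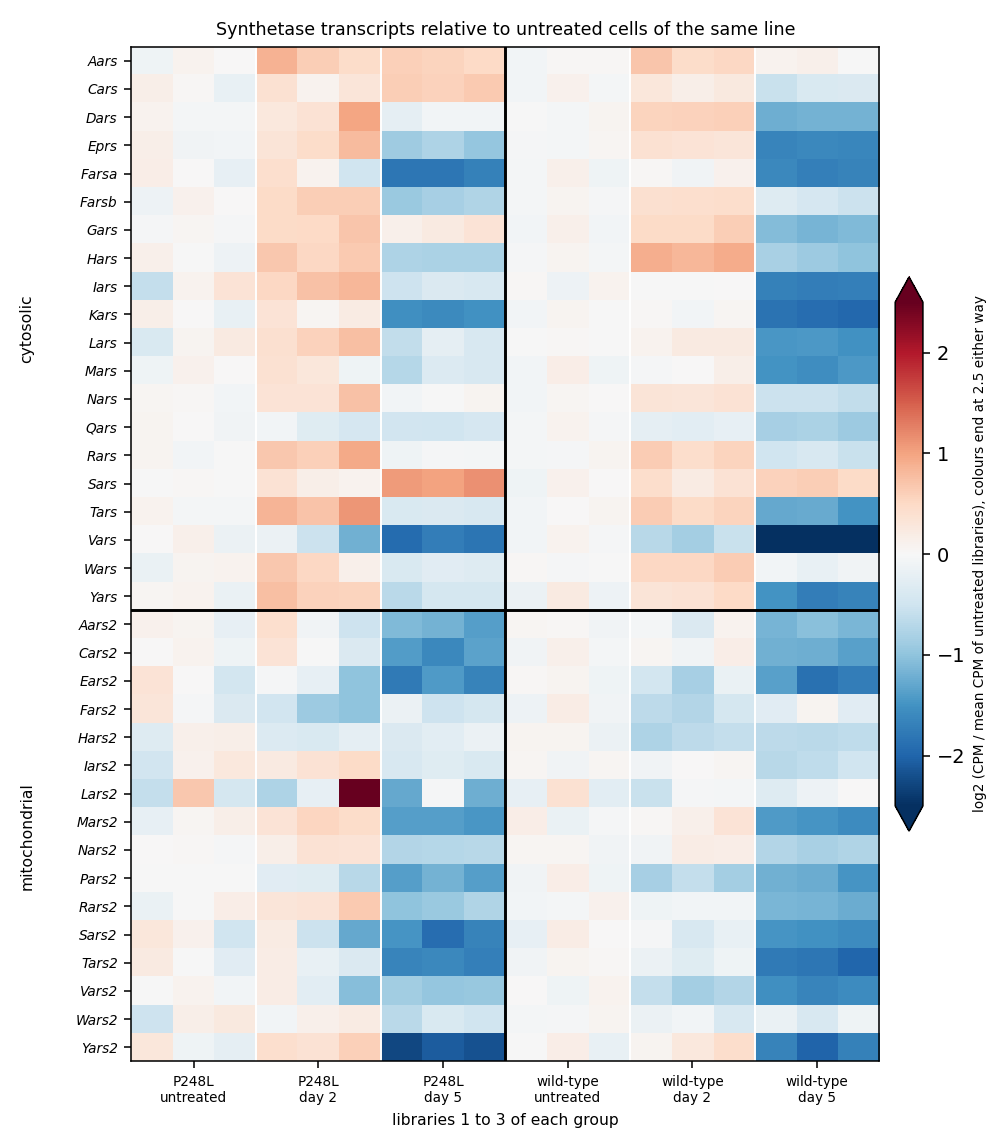
Each row is a synthetase gene and each column a library, coloured by log2 of its CPM over the mean CPM of the untreated libraries of the same line, P248L on the left and wild-type on the right. Cytosolic rows are mostly red at day 2, Vars falls below the colour range at wild-type day 5, and Lars2 in P248L day 2 library 3, at 1320 CPM, lies above it.

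At day 5 most members of both classes had fallen below the untreated level, and further in wild-type than in P248L cells for many cytosolic ones. In P248L cells 3 cytosolic members were higher, 13 lower and 4 did not pass at day 5 against untreated, beside 34.8% of all genes higher and 36.2% lower, and the median log2 fold change was -0.41 against -0.02 over all genes. In wild-type cells 1 was higher, 17 lower and 2 did not pass, beside 35.7% and 37.4% of all genes, with a median of -1.15 against -0.05 over all genes. Of the mitochondrial members 13 of 16 were lower in P248L cells (median -1.08) and 13 of 16 in wild-type cells (median -1.22). In neither line was a mitochondrial member called higher by edgeR, and 0 had an unadjusted p under 0.05 in that direction or were called by DESeq2. The blood cell markers summed to 1530 to 1600 CPM at P248L day 5 and 2190 to 2290 CPM untreated, and to 1470 to 1560 CPM at wild-type day 5 and 1820 to 1840 CPM untreated. The erythroid markers summed to 5.74 to 6.94 CPM at wild-type day 5 and 0.387 to 0.532 CPM untreated, and the stromal markers to 0.880 to 1.44 CPM at P248L day 5 and 8.44 to 12.0 CPM untreated. The part of these markers was not tested. Both class medians are far from those of all genes, and the share of members lower is above the share of all genes lower in both lines.

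Sars, the seryl-tRNA synthetase (chromosome 3, 108424864 to 108445259 of GRCm38.p6), was the 1 cytosolic gene called higher at day 5 in both lines. It stood at 128, 133 and 128 CPM in untreated P248L libraries, 166, 143 and 137 CPM at P248L day 2 and 270, 260 and 288 CPM at P248L day 5. Sars stood at 133, 154 and 144 CPM in untreated wild-type libraries, 194, 165 and 184 CPM at wild-type day 2 and 215, 219 and 201 CPM at wild-type day 5. The rise at day 5 was 1.07 ± 0.11 in P248L and 0.56 ± 0.11 in wild-type cells on the log2 scale (adjusted p = 7e-08 and 0.00012), and day 5 libraries lay above all untreated ones in both lines. With no scaling beyond library size the wild-type value was 0.12 and did not pass (adjusted p = 0.37). Aars, the alanyl-tRNA synthetase (chromosome 8, 111027778 to 111055569), stood at 136, 155 and 146 CPM in untreated P248L libraries, 265, 224 and 199 CPM at P248L day 2 and 221, 214 and 207 CPM at P248L day 5. Aars stood at 166, 179 and 178 CPM in untreated wild-type libraries, 281, 240 and 249 CPM at wild-type day 2 and 185, 191 and 172 CPM at wild-type day 5. It was higher at day 5 in P248L cells (0.56 ± 0.11, adjusted p = 0.00029), and in wild-type cells its libraries overlapped (0.07 ± 0.11, adjusted p = 0.62). Cars, the cysteinyl-tRNA synthetase (chromosome 7, 143557230 to 143600090), stood at 89.9, 82.1 and 70.8 CPM in untreated P248L libraries, 105, 86.4 and 100 CPM at P248L day 2 and 124, 121 and 128 CPM at P248L day 5. Cars stood at 74.5, 85.1 and 76.0 CPM in untreated wild-type libraries, 95.3, 87.2 and 92.4 CPM at wild-type day 2 and 53.4, 60.1 and 61.4 CPM at wild-type day 5. It rose at day 5 in P248L cells (0.62 ± 0.11, adjusted p = 9.4e-05) and fell in wild-type cells (-0.43 ± 0.11, adjusted p = 0.0024), and the groups did not overlap in either line.

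The deepest cytosolic falls of wild-type cells were those of Vars, Kars and Iars. Vars (chromosome 17, 35000907 to 35016329) was at 42.2, 36.9 and 38.2 CPM at wild-type day 5, against 231, 256 and 237 CPM in untreated wild-type cells, a log2 fold change of -2.63 ± 0.20 (adjusted p = 1.1e-09). In P248L cells the fall was -1.82 ± 0.19 (adjusted p = 1.2e-07). Kars, the lysyl-tRNA synthetase of the complex (chromosome 8, 111993439 to 112011354), stood at 344, 313 and 271 CPM in untreated P248L libraries, 390, 319 and 355 CPM at P248L day 2 and 107, 103 and 108 CPM at P248L day 5. Kars stood at 259, 287 and 271 CPM in untreated wild-type libraries, 278, 260 and 281 CPM at wild-type day 2 and 76.1, 72.4 and 70.0 CPM at wild-type day 5. Its day 5 log2 fold change was -1.55 ± 0.11 in P248L and -1.90 ± 0.11 in wild-type cells (adjusted p = 1e-09 and 5.1e-11), and the day 5 libraries lay below all untreated ones in both lines. Iars, the isoleucyl-tRNA synthetase of the complex (chromosome 13, 49682130 to 49734267), stood at 144, 234 and 279 CPM in untreated P248L libraries, 315, 366 and 388 CPM at P248L day 2 and 152, 171 and 166 CPM at P248L day 5. Iars stood at 260, 232 and 272 CPM in untreated wild-type libraries, 254, 253 and 258 CPM at wild-type day 2 and 78.8, 77.2 and 77.6 CPM at wild-type day 5. The wild-type fall was -1.71 ± 0.17 (adjusted p = 7.2e-08). The P248L fall was -0.43 ± 0.17 (adjusted p = 0.031), with overlapping libraries, since untreated library 1 lay below its companions. It was lost without untreated library 2 or 3 or day 5 library 1 or 3 (adjusted p from 0.058 to 0.14). Without 1 library the day 5 calls of Lars (2 libraries), Wars (2), Iars2 (5) and Wars2 (1) in P248L cells were lost as well, with adjusted p up to 0.13.

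Among the deepest mitochondrial falls were those of Tars2, Yars2 and Ears2. Tars2, the threonyl-tRNA synthetase of mitochondria (chromosome 3, 95739974 to 95756365), stood at 68.7, 58.3 and 48.2 CPM in untreated P248L libraries, 66.2, 51.4 and 45.2 CPM at P248L day 2 and 18.6, 19.0 and 17.8 CPM at P248L day 5. Tars2 stood at 59.9, 66.8 and 65.3 CPM in untreated wild-type libraries, 57.8, 52.1 and 59.8 CPM at wild-type day 2 and 18.8, 18.2 and 16.1 CPM at wild-type day 5. Its day 5 log2 fold change was -1.66 ± 0.15 in P248L and -1.85 ± 0.15 in wild-type cells (adjusted p = 2.2e-08 and 4.2e-09). Yars2, the tyrosyl-tRNA synthetase (chromosome 16, 16302965 to 16309640), stood at 66.1, 50.5 and 46.6 CPM in untreated P248L libraries, 73.2, 69.9 and 82.4 CPM at P248L day 2 and 11.2, 12.8 and 12.0 CPM at P248L day 5. Yars2 stood at 39.5, 44.5 and 34.9 CPM in untreated wild-type libraries, 41.7, 47.6 and 53.4 CPM at wild-type day 2 and 12.4, 9.84 and 12.3 CPM at wild-type day 5. Day 5 lay -2.18 ± 0.16 in P248L and -1.79 ± 0.16 in wild-type cells from untreated on the log2 scale (adjusted p = 1.1e-09 and 1.1e-08). Ears2 (chromosome 7, 122034162 to 122067094), with 32 to 251 reads per library the least covered member, stood at 9.42, 7.41 and 5.38 CPM in untreated P248L libraries, 7.24, 6.40 and 3.68 CPM at P248L day 2 and 2.18, 2.76 and 2.32 CPM at P248L day 5. Ears2 stood at 7.36, 7.58 and 6.70 CPM in untreated wild-type libraries, 5.27, 4.07 and 6.42 CPM at wild-type day 2 and 2.80, 1.99 and 2.18 CPM at wild-type day 5. Its log2 fold change was -1.63 ± 0.26 in P248L and -1.63 ± 0.26 in wild-type cells (adjusted p = 2.5e-05 and 2.3e-05). In all 3 genes the day 5 libraries lay below every untreated library of their line. Fars2, Hars2 and Lars2 did not pass in P248L cells, and Fars2, Lars2 and Wars2 did not pass in wild-type cells.

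Day 5 was then set against day 2. At P248L day 5 against day 2, 2 cytosolic members were higher, 16 lower and 2 did not pass (median log2 fold change -0.89, against 0.06 over all genes), beside 37.1% of all genes higher and 33.1% lower. At wild-type day 5 against day 2, 19 of 20 were lower (median -1.64, against 0.02), beside 36.0% of all genes higher and 34.7% lower. No cytosolic member was called higher there by edgeR, 1 was at an unadjusted p under 0.05 and 1 was called by DESeq2. That gene was Sars, at 0.23 ± 0.11 (adjusted p = 0.063) in wild-type cells, whereas in P248L cells it rose by 0.87 ± 0.11 (adjusted p = 8.8e-07). The other riser between the IL-3 times in P248L cells was Cars (0.36 ± 0.11, adjusted p = 0.009), a call lost without P248L day 2 library 2 (0.22, adjusted p = 0.13). Mitochondrial members were lower in 14 of 16 cases in P248L cells (median -1.24) and in 12 of 16 in wild-type cells (median -0.94). None was called higher in P248L cells by edgeR, while Fars2 had an unadjusted p under 0.05 and was the 1 gene called by DESeq2. In P248L cells the call of Vars2 was lost without day 2 library 1 (-0.39, adjusted p = 0.062), and that of Lars2 without day 2 library 3 (-0.27, adjusted p = 0.56). Fars2, the phenylalanyl-tRNA synthetase of mitochondria, was the 1 mitochondrial member higher at wild-type day 5 against day 2 (0.45 ± 0.19, adjusted p = 0.043), and this call was lost without any of 10 single libraries (adjusted p from 0.051 to 0.19).

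The lines were then set against each other at each time. Between untreated P248L and wild-type cells no cytosolic synthetase passed. Of 20 members 0 passed in edgeR in either direction, 2 had an unadjusted p under 0.05 (Vars higher and Aars lower) and DESeq2 called 1, and the largest difference was that of Vars (0.50 ± 0.18, adjusted p = 0.06). Over all genes 10.3% were higher and 11.3% lower in P248L cells. Of the mitochondrial members 2 were higher, and 0 were lower in edgeR, with 1 (Rars2) at an unadjusted p under 0.05 and called by DESeq2. The stromal markers summed to 8.44 to 12.0 CPM in untreated P248L cells and 0.133 to 0.387 CPM in untreated wild-type cells, and their part was not tested. Aars2, the mitochondrial alanyl-tRNA synthetase, stood at 25.4, 24.9 and 20.6 CPM in untreated P248L libraries, 31.5, 22.3 and 16.5 CPM at P248L day 2 and 11.0, 10.4 and 9.04 CPM at P248L day 5. Aars2 stood at 12.3, 12.2 and 11.2 CPM in untreated wild-type libraries, 11.5, 9.29 and 12.6 CPM at wild-type day 2 and 5.30, 5.74 and 5.37 CPM at wild-type day 5. P248L libraries lay above wild-type libraries at every time, by 0.99 ± 0.19 untreated, 1.08 ± 0.19 at day 2 and 0.89 ± 0.20 at day 5 on the log2 scale (adjusted p = 0.00098, 0.00023 and 0.0015). The lines' day 5 responses of Aars2 differed by -0.10 ± 0.28 (adjusted p = 0.84), which did not pass. Yars2 was higher in untreated P248L cells by 0.46 ± 0.15 (adjusted p = 0.036), a call lost without wild-type untreated library 1 or 3 or P248L untreated library 1 (adjusted p from 0.096 to 0.2).

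At day 2, 5 cytosolic members were higher in P248L than in wild-type cells, 1 was lower and 14 did not pass, beside 15.5% of all genes higher and 20.3% lower. The 5 were Eprs, Iars, Kars, Tars and Vars, with log2 differences from 0.32 (Tars) to 0.62 (Vars). The hepatocyte markers summed to 0.80 to 1.18 CPM at P248L day 2 and 13.3 to 14.3 CPM at wild-type day 2, and their part was not tested. Eprs encodes the joint glutamyl- and prolyl-tRNA synthetase of the complex. Its difference fell to 0.26 without P248L day 2 library 3 and did not pass (adjusted p = 0.06), and the fit of only the libraries compared called 1 cytosolic member higher. Without P248L day 2 library 3 the calls of Iars and Tars were also lost. The calls of Iars (any of 5 libraries), Tars (3), Vars (2) and Sars, the member that was lower (any of 16), were each lost when a single library was left out, with adjusted p up to 0.22. For Sars these included libraries of groups outside the comparison, and the log2 difference was -0.32 to -0.21. Mitochondrial members were higher in 7 of 16 cases, with log2 differences from 0.37 to 1.08 apart from Lars2, and the fit of only the libraries compared called 2. Of these, Hars2 and Mars2 were lost without any of 3 libraries and Vars2 without any of 2, and Lars2 without P248L day 2 library 3 (0.36, adjusted p = 0.52). None was lower, and 0 had an unadjusted p under 0.05 in that direction or were called by DESeq2. The responses at day 2 were not shown to differ for any member: in edgeR 0 of 36 passed, 4 had an unadjusted p under 0.05, all higher in P248L cells (Iars, Tars, Lars2 and Rars2), and DESeq2 called 2, while 3.05% of all genes were called higher and 6.5% lower. The largest difference apart from Lars2 was that of Iars (0.70 ± 0.24, adjusted p = 0.076).

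At day 5 most cytosolic synthetases stood higher in P248L than in wild-type cells, and few mitochondrial ones passed. Of 20 cytosolic members 16 were higher in P248L than in wild-type cells, 1 was lower and 3 did not pass, with a median log2 difference of 0.78 against 0.02 over all genes, of which 22.8% were higher and 22.7% lower. Of 16 mitochondrial members 4 were higher, namely Aars2, Hars2, Nars2 and Vars2, and 12 did not pass (median 0.08), with 0 lower in edgeR, 0 lower at an unadjusted p under 0.05 and 0 lower in DESeq2. The share of mitochondrial members higher is near the 22.8% of all genes. Members of the complex were higher in 8 of 8 cases (median 0.94) and the other cytosolic members in 8 of 12 (median 0.50). Class I genes were higher in 8 of 9 cases (median 0.98) and class II genes in 7 of 10 (median 0.45), with Eprs, which joins both classes, apart. The summed erythroid markers were 1.30 to 1.76 CPM at P248L day 5 and 5.74 to 6.94 CPM at wild-type day 5, and their part in the synthetase values was not tested. Calls lost when a single library was left out were those of Qars (without any of 13), Nars2 (any of 14), Hars (wild-type day 5 library 3) and Hars2 (P248L day 5 library 3), with adjusted p up to 0.12. For Qars and Nars2 these included libraries of groups outside the comparison, and the log2 differences were 0.26 to 0.31 and 0.29 to 0.33.

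The difference of the day 5 responses, that is the change from untreated in P248L cells minus that in wild-type cells, passed for 15 of 20 cytosolic members, 14 higher and 1 lower, with a median of 0.67 against 0.04 over all genes. Among all genes 14.7% were called higher and 12.2% lower in this comparison. Of 16 mitochondrial members 0 passed in edgeR, 2 had an unadjusted p under 0.05 (Hars2 and Vars2) and DESeq2 called 0, and their median was 0.00. In the list of ATF4 or amino acid response targets 12 of 13 were higher (median 0.97), the exception being Wars, the tryptophanyl-tRNA synthetase, at -0.21 ± 0.17 (adjusted p = 0.39). In the other 7 cytosolic genes 2 were higher, 1 lower and 4 did not pass (median 0.36). These comparisons share all their libraries with the pairwise ones above, and the counts describe the lists without a test between them. The lists were chosen with earlier results of these data known.

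**Figure D3:**
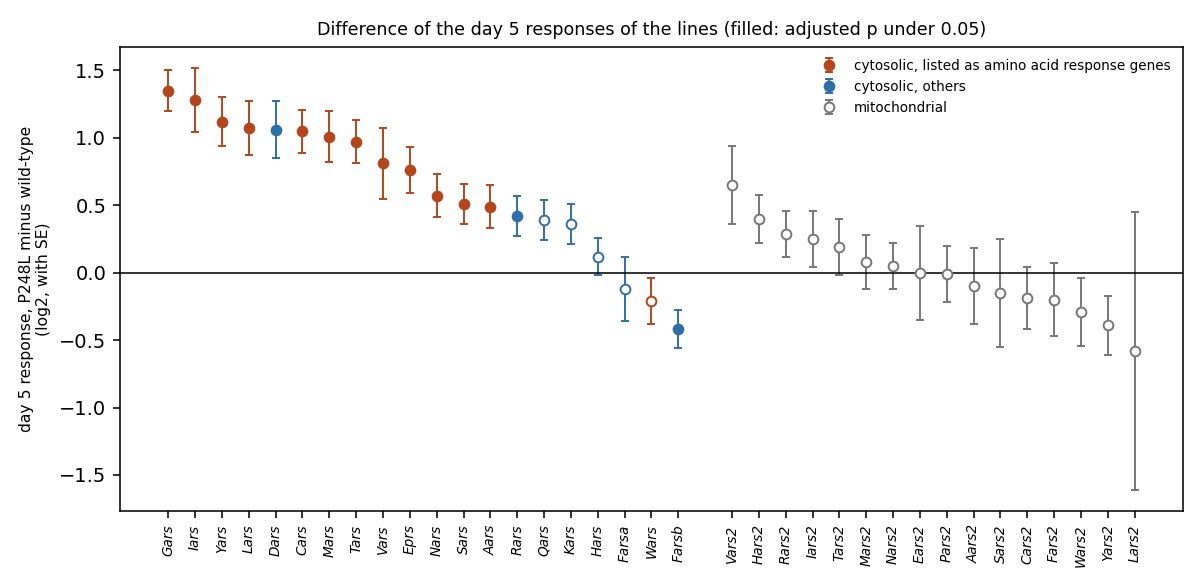
Difference of the day 5 responses, P248L minus wild-type, on the log2 scale with its SE for each synthetase gene, cytosolic on the left and mitochondrial on the right. Filled points passed at an adjusted p under 0.05 in edgeR, from Gars at 1.35 to Farsb at -0.42, and none of the mitochondrial ones did.

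Gars, the glycyl-tRNA synthetase (chromosome 6, 55038001 to 55079504), whose promoter is shown above, had the largest difference. It stood at 308, 324 and 305 CPM in untreated P248L libraries, 438, 442 and 506 CPM at P248L day 2 and 340, 366 and 395 CPM at P248L day 5. Gars stood at 265, 306 and 267 CPM in untreated wild-type libraries, 390, 389 and 425 CPM at wild-type day 2 and 131, 125 and 130 CPM at wild-type day 5. At day 5 it did not pass in P248L cells, where all 3 libraries lay above the untreated ones (0.23 ± 0.10, adjusted p = 0.052), and it was lower in wild-type cells (-1.11 ± 0.10, adjusted p = 2.7e-08), and the responses differed by 1.35 ± 0.15 (adjusted p = 3e-06). Yars, the tyrosyl-tRNA synthetase (chromosome 4, 129189734 to 129219240), stood at 109, 112 and 93.8 CPM in untreated P248L libraries, 176, 157 and 155 CPM at P248L day 2 and 66.0, 77.1 and 77.3 CPM at P248L day 5. Yars stood at 92.8, 120 and 93.4 CPM in untreated wild-type libraries, 127, 132 and 145 CPM at wild-type day 2 and 36.0, 30.7 and 31.9 CPM at wild-type day 5. It fell in both lines, by more in wild-type cells, and the responses differed by 1.12 ± 0.18 (adjusted p = 0.00015). Tars, the threonyl-tRNA synthetase (chromosome 15, 11383663 to 11399658), stood at 181, 166 and 166 CPM in untreated P248L libraries, 310, 279 and 367 CPM at P248L day 2 and 132, 134 and 130 CPM at P248L day 5. Tars stood at 165, 174 and 183 CPM in untreated wild-type libraries, 269, 241 and 257 CPM at wild-type day 2 and 71.9, 72.3 and 61.4 CPM at wild-type day 5. Its responses differed by 0.97 ± 0.16 (adjusted p = 0.0002), and at day 5 the P248L libraries lay between 130 and 134 CPM and the wild-type libraries between 61.4 and 72.3 CPM.

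Among members of the complex, Iars had responses that differed by 1.28 ± 0.24 (adjusted p = 0.00064) and Dars by 1.06 ± 0.21 (adjusted p = 0.00087). Lars, the leucyl-tRNA synthetase, stood at 176, 240 and 267 CPM in untreated P248L libraries, 299, 341 and 385 CPM at P248L day 2 and 149, 195 and 173 CPM at P248L day 5. Lars stood at 253, 259 and 251 CPM in untreated wild-type libraries, 269, 298 and 296 CPM at wild-type day 2 and 93.3, 93.4 and 89.3 CPM at wild-type day 5. Its responses differed by 1.07 ± 0.20 (adjusted p = 0.00071), with day 5 libraries of the lines well apart. Mars, the methionyl-tRNA synthetase (chromosome 10, 127296221 to 127311786), stood at 122, 142 and 132 CPM in untreated P248L libraries, 172, 160 and 123 CPM at P248L day 2 and 80.2, 104 and 100 CPM at P248L day 5. Mars stood at 129, 151 and 125 CPM in untreated wild-type libraries, 133, 135 and 150 CPM at wild-type day 2 and 47.8, 46.1 and 50.2 CPM at wild-type day 5. The difference of its responses was 1.01 ± 0.19 (adjusted p = 0.00068). Eprs (chromosome 1, 185361417 to 185428360) stood at 563, 475 and 481 CPM in untreated P248L libraries, 632, 695 and 879 CPM at P248L day 2 and 275, 298 and 259 CPM at P248L day 5. Eprs stood at 433, 427 and 457 CPM in untreated wild-type libraries, 569, 556 and 539 CPM at wild-type day 2 and 140, 143 and 142 CPM at wild-type day 5. Both lines fell at day 5, and the responses differed by 0.76 ± 0.17 (adjusted p = 0.003). Rars, the arginyl-tRNA synthetase, stood at 200, 184 and 191 CPM in untreated P248L libraries, 305, 289 and 368 CPM at P248L day 2 and 179, 189 and 185 CPM at P248L day 5. Rars stood at 182, 186 and 199 CPM in untreated wild-type libraries, 294, 256 and 279 CPM at wild-type day 2 and 134, 143 and 128 CPM at wild-type day 5. P248L libraries at day 5 overlapped the untreated ones and wild-type libraries lay below theirs, and the difference of 0.42 ± 0.15 (adjusted p = 0.049) was lost without any of 16 single libraries (adjusted p from 0.054 to 0.15). Kars (0.36 ± 0.15, adjusted p = 0.1) and Qars (0.39 ± 0.15, adjusted p = 0.059) did not pass.

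Outside the complex, Cars differed between the responses by 1.05 ± 0.16 (adjusted p = 0.0001), Vars by 0.81 ± 0.26 (adjusted p = 0.029), Sars by 0.51 ± 0.15 (adjusted p = 0.016) and Aars by 0.49 ± 0.16 (adjusted p = 0.031). Without 1 library the call of Vars was lost in 7 cases (adjusted p from 0.054 to 0.069), that of Aars in 11 (0.05 to 0.093) and that of Sars without wild-type untreated library 2 or 3 (0.051 to 0.06). Nars stood at 451, 445 and 420 CPM in untreated P248L libraries, 556, 556 and 733 CPM at P248L day 2 and 419, 437 and 462 CPM at P248L day 5. Nars stood at 395, 431 and 421 CPM in untreated wild-type libraries, 522, 510 and 531 CPM at wild-type day 2 and 286, 287 and 270 CPM at wild-type day 5. At day 5 it did not pass in P248L cells (0.00 ± 0.11) and was lower in wild-type cells (-0.57 ± 0.11, adjusted p = 0.00022), and the responses differed by 0.57 ± 0.16 (adjusted p = 0.013). Hars (0.12 ± 0.14, adjusted p = 0.57) did not pass.

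The phenylalanyl-tRNA synthetase is built from an alpha subunit, encoded by Farsa, and a beta subunit, encoded by Farsb, and the response of Farsb differed between the lines. Farsb (chromosome 1, 78417958 to 78488897) stood at 103, 120 and 113 CPM in untreated P248L libraries, 156, 172 and 172 CPM at P248L day 2 and 58.6, 63.3 and 66.1 CPM at P248L day 5. Farsb stood at 113, 123 and 115 CPM in untreated wild-type libraries, 155, 157 and 158 CPM at wild-type day 2 and 93.9, 87.4 and 80.4 CPM at wild-type day 5. Its fall at day 5 was larger in P248L cells (-0.84 ± 0.10) than in wild-type cells (-0.42 ± 0.10), the one difference with a negative sign that passed (-0.42 ± 0.14, adjusted p = 0.036), and it was lost without any of 8 single libraries (adjusted p from 0.051 to 0.1) and with no scaling beyond library size. At day 5 Farsb was lower in P248L than in wild-type cells (log2 difference -0.48 ± 0.10, adjusted p = 0.00074), with no overlap. Farsa averaged 51.2 ± 2.49 CPM at P248L day 5 and 52.0 ± 1.98 CPM at wild-type day 5 (SD, n = 3 each), and its responses did not pass as different (-0.12 ± 0.24, adjusted p = 0.77).

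**Figure D4:**
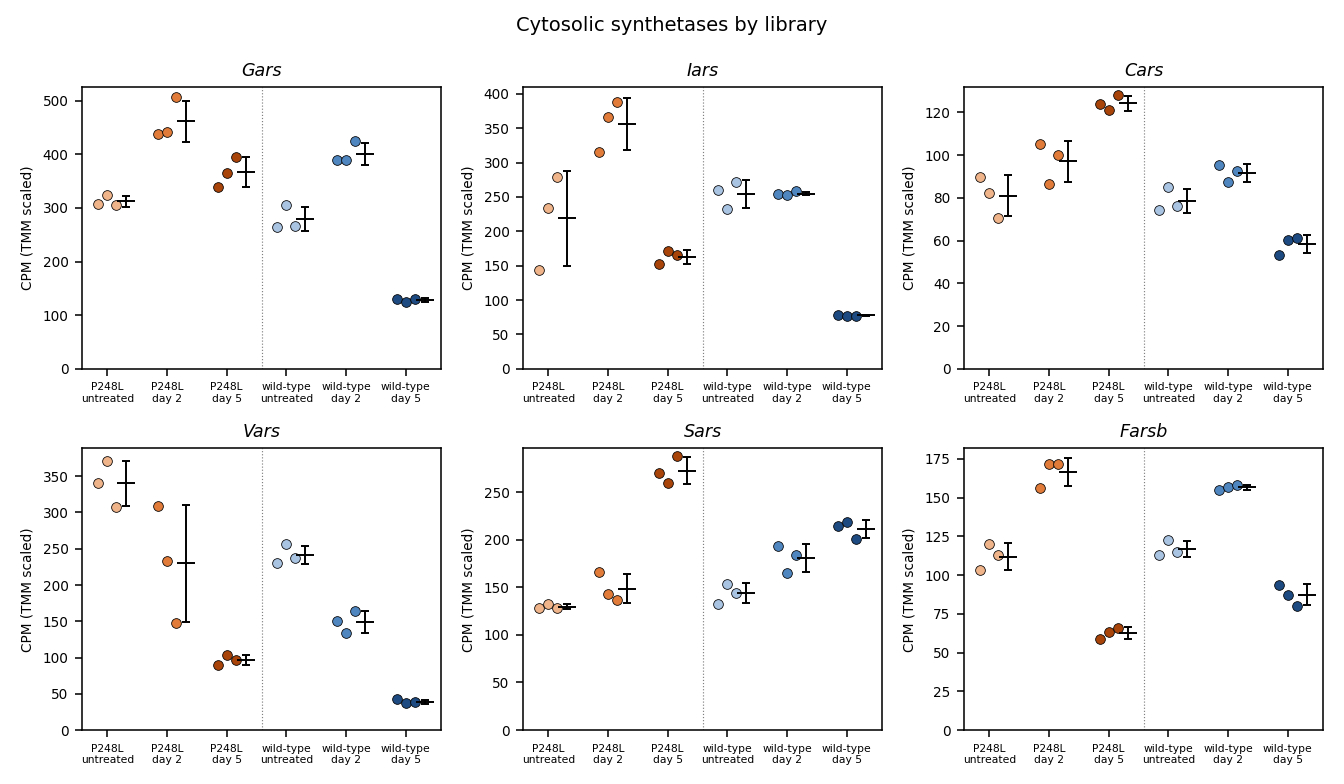
CPM of 6 cytosolic synthetase genes in every library, with the mean and SD of each group beside its 3 points. At day 5 Gars, Iars, Cars, Vars and Sars lie higher in P248L than in wild-type libraries, and Farsb lies lower, with 58.6 to 66.1 CPM in P248L and 80.4 to 93.9 CPM in wild-type libraries.

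The genes of the amino acid response were read beside the synthetases, from a list of 7. At day 5 against untreated, 6 of 7 were higher in P248L cells (median log2 fold change 1.26), beside 34.8% of all genes. In wild-type cells 3 were higher and 3 lower (median -0.05), beside 35.7% and 37.4% of all genes, which is near the share of all genes. The responses of 5 of 7 were higher and 1 lower in P248L than in wild-type cells, beside 14.7% and 12.2% of all genes. Asns, the asparagine synthetase and a standard ATF4 target, stood at 98.9, 102 and 82.7 CPM in untreated P248L libraries, 147, 139 and 139 CPM at P248L day 2 and 186, 195 and 215 CPM at P248L day 5. Asns stood at 96.6, 113 and 102 CPM in untreated wild-type libraries, 163, 148 and 171 CPM at wild-type day 2 and 32.2, 32.5 and 32.9 CPM at wild-type day 5. It rose at P248L day 5 (1.07 ± 0.11) and fell at wild-type day 5 (-1.67 ± 0.11), and the responses differed by 2.74 ± 0.16 (adjusted p = 1.3e-09). Atf4 itself stood at 305, 239 and 221 CPM in untreated P248L libraries, 365, 365 and 315 CPM at P248L day 2 and 357, 372 and 405 CPM at P248L day 5. Atf4 stood at 202, 269 and 223 CPM in untreated wild-type libraries, 400, 439 and 428 CPM at wild-type day 2 and 208, 213 and 251 CPM at wild-type day 5. Its responses differed by 0.61 ± 0.19 (adjusted p = 0.026). Trib3, a pseudokinase gene induced by ATF4, differed by 1.93 ± 0.39 (adjusted p = 0.0011), and Chac1, a glutathione-degrading enzyme gene, by 2.60 ± 0.45 (adjusted p = 0.00034). Ddit3, which is in the same amino acid response list and encodes the stress factor CHOP, went the other way. It stood at 14.0, 15.3 and 17.9 CPM at P248L day 5 and at 60.3, 64.0 and 53.1 CPM at wild-type day 5, and its responses differed by -2.28 ± 0.30 (adjusted p = 1.9e-05). Whether these genes have a part in the synthetase values was not tested.

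At day 2 against untreated, 4 of 7 of these genes were higher and 1 (Ddit3) lower in P248L cells, where 18.5% of all genes were higher and 21.5% lower. In wild-type cells 5 of 7 were higher and 1 (Eif2ak4) lower, beside 22.1% and 21.8% of all genes. At day 2, 4 of 7 were lower in P248L than in wild-type cells, beside 20.3% of all genes. Trib3 stood at 6.53, 6.03 and 4.71 CPM at P248L day 2 and at 27.3, 22.3 and 25.7 CPM at wild-type day 2, a difference of -2.11 ± 0.26 (adjusted p = 4.2e-06).

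Other genes of the pathway were read from lists of their own. All 3 scaffold genes of the complex were lower at day 5 against untreated in both lines, with log2 fold changes from -1.64 (Eef1e1) to -0.87 (Aimp1) in P248L cells and from -2.02 (Aimp2) to -0.98 (Aimp1) in wild-type cells. Eef1e1 was higher at day 2 in both lines (0.85 ± 0.19 in P248L and 0.99 ± 0.19 in wild-type cells, adjusted p = 0.0016 and 0.00033). In the difference of the day 5 responses Aimp1, Aimp2 and Eef1e1 had adjusted p = 0.78, 0.15 and 0.99 in edgeR. Genes of tRNA processing and export were lower at day 5 in 3 of 3 cases in both lines. Among all tested genes 36.2% were lower at day 5 against untreated in P248L cells and 37.4% in wild-type cells. Xpot, the tRNA export receptor, stood at 200, 226 and 241 CPM in untreated P248L libraries, 315, 343 and 394 CPM at P248L day 2 and 126, 138 and 127 CPM at P248L day 5. Xpot stood at 223, 209 and 227 CPM in untreated wild-type libraries, 280, 284 and 293 CPM at wild-type day 2 and 88.3, 91.7 and 89.5 CPM at wild-type day 5. Its day 5 responses differed by 0.52 ± 0.15 (adjusted p = 0.016), and those of Elac2, a tRNA 3′ processing nuclease, by 0.63 ± 0.23 (adjusted p = 0.049).

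Of 10 mitochondrial translation factor genes 8 were lower at day 5 against untreated in P248L cells (median -0.77) and 8 in wild-type cells (median -0.70). Of all tested genes 36.2% and 37.4% were lower in these comparisons. In the difference of the day 5 responses the lowest adjusted p of these factor genes was 0.22 in edgeR, for Mtif3. Gfm1, the mitochondrial elongation factor G1, was higher at day 2 by 1.0 ± 0.11 in P248L and 0.83 ± 0.10 in wild-type cells (adjusted p = 1.2e-06 and 5e-06) and lower at day 5 in both. Of the eEF1 subunit genes, Eef1b2, Eef1d and Eef1g were lower at day 5 in both lines, while Eef1a1, which encodes the tRNA-carrying subunit, was higher in P248L cells (0.38 ± 0.14, adjusted p = 0.019) and did not pass in wild-type cells (-0.13 ± 0.14, adjusted p = 0.39). Qrsl1, a subunit of the amidotransferase that makes mitochondrial glutaminyl-tRNA, was higher at day 2 in both lines (0.62 ± 0.12 in P248L and 0.56 ± 0.12 in wild-type cells, adjusted p = 0.00052 and 0.00087), and of 3 editing and deacylation genes in the files 3 were lower at day 5 in P248L and 2 in wild-type cells.

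Lars2, the mitochondrial leucyl-tRNA synthetase (chromosome 9, 123366927 to 123462675), is given apart because 1 library sets its value at P248L day 2. It stood at 77.9, 189 and 87.1 CPM in untreated P248L libraries, 69.0, 103 and 1320 CPM at P248L day 2 and 48.3, 116 and 50.9 CPM at P248L day 5. Lars2 stood at 66.3, 99.3 and 64.1 CPM in untreated wild-type libraries, 51.8, 74.8 and 74.5 CPM at wild-type day 2 and 61.5, 70.2 and 77.0 CPM at wild-type day 5. The value of 1320 CPM in P248L day 2 library 3 coincided with 37700 CPM of Rn45s, the ribosomal RNA precursor, against 1230 and 1500 CPM in the companion libraries. The rise at P248L day 2 (2.07 ± 0.75, adjusted p = 0.035) became -0.46 (adjusted p = 0.4) without that library. Leaving out untreated library 1 or 3 instead also ended the call (adjusted p = 0.079 or above). Library 2 of P248L untreated, of P248L day 5 and of wild-type untreated also held the highest Lars2 and the highest Rn45s of their groups. So did library 3 of wild-type day 5 (77.0 and 1140 CPM). At wild-type day 2, libraries 2 and 3 had 74.8 and 74.5 CPM of Lars2 with 1130 CPM of Rn45s each. Library 1 there had 51.8 and 808 CPM. The part of ribosomal RNA in the Lars2 values was not tested. Without P248L day 2 library 3 the number of mitochondrial members higher at P248L day 2 was 2.

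**Figure D5:**
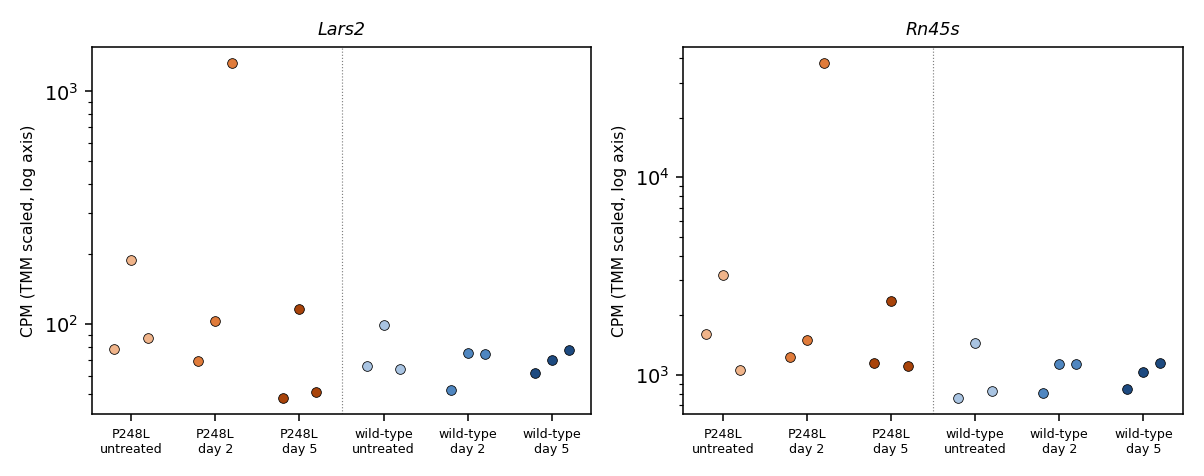
CPM of Lars2 (left) and of the ribosomal RNA precursor gene Rn45s (right) in every library, both on log axes, with 3 points per group in the order of library number. P248L day 2 library 3 stands apart in both, at 1320 CPM for Lars2 and 37700 CPM for Rn45s.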

How the data were processed

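RNA from 1000000 FDH cells per condition was sequenced in 18 libraries. The authors deposited read counts per gene from STAR on mm10, per the submitters' processing notes; their versions were not stated there. The column of the strand that held nearly all reads was used, and 1.17% to 2.54% of reads lay on the other strand. Rows that name no gene were left out. Apart from unmapped reads, these rows held 26.5% to 35.9% of the reads that they and the genes held together.

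Genes with low counts were filtered by edgeR's default (minimum 10), and counts were scaled by TMM and fitted over all 6 groups with edgeR 4.0.16 (limma 3.58.1, R 4.3.3), adjusted by Benjamini-Hochberg over 11942 genes. Values are log2 fold changes ± SE. DESeq2 1.42.0 was an alternative. Figures used matplotlib 3.10.9 in Python 3.11.15. In simulated counts, 70% to 87% of 2-fold changes were called in the 9 group comparisons, 54% in the difference of day 2 responses and 37% in that of day 5 responses, over 11577 to 11606 genes. All groups were given the same mean, and 100 genes were changed 2-fold and 100 others 4-fold in a single group. Unchanged genes made up 3.65% of calls at wild-type day 2 against untreated, the lowest share, and 7.65% at wild-type day 5 against untreated, the highest. In the difference of day 5 responses they made up 5.76%. Far fewer genes changed there than were called in the data, so these shares need not hold for the data. Both differences of responses were simulated alike, so 54% and 37% do not set them apart. For libraries with the same replicate number, deviations from the group mean correlated at r = 0.46, 0.17 and 0.35 between P248L untreated and day 2 cells. Between untreated P248L and untreated wild-type cells r was -0.39, -0.22 and 0.37, of mixed sign. These values come from the data and do not show that same-numbered libraries belong together, since no label states what the numbers mark.

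Members and lists were chosen with earlier results of these data known. In each class, values in every library were to be given for the 3 largest rises and 3 largest falls at wild-type day 5 against untreated, the 2 largest of each at wild-type day 2, and every member that passed in a difference of responses. Where fewer members had a positive value, only those were taken, and Vars2 in wild-type cells is given by mean and SD. Lars2 and Aars2 were added after their values were seen.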

Additional observations from a re-analysis of the deposited data

Results flagged for a closer look

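The response to 5 days in IL-3 differed between the P248L and wild-type lines for 15 cytosolic synthetase genes, by edgeR's quasi-likelihood test of the difference itself (adjusted p under 0.05), 14 higher and 1 lower. Among all genes 14.7% were called higher and 12.2% lower, and leaving out 1 library at a time gave 10 to 15 cytosolic members higher. On the log2 scale, P248L minus wild-type, the difference of the day 5 responses for members of the multi-tRNA synthetase complex was Iars 1.28, Lars 1.07, Dars 1.06, Mars 1.01, Eprs 0.76 and Rars 0.42. For members outside the complex it was Gars 1.35, Yars 1.12, Cars 1.05, Tars 0.97, Vars 0.81, Nars 0.57, Sars 0.51 and Aars 0.49. Farsb had a negative difference of -0.42. The calls of Farsb, Rars, Vars, Aars and Sars were lost when single libraries were left out. No mitochondrial member passed in edgeR, while 2 had an unadjusted p under 0.05 and DESeq2 called 0.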

How the results depend on the processing

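Of 212 calls of single members 158 were kept under every alternative, 54 were lost under 1 or more and the Lars2 value reversed in 2. Lars2 at P248L day 2 against untreated was -0.46 without day 2 library 3 and -0.69 without untreated library 1 as well, and without 1 library it ranged up to 2.60. Of 44 counts of members called higher or lower, 18 stayed within 1.5 times their value throughout, and the others are given here. The causes were not tested, and the share of all genes called was not counted under these alternatives. With the DESeq2 Wald test there were 1 mitochondrial lower in P248L day 2 against untreated, 1 mitochondrial higher in P248L day 5 against day 2, and 2 cytosolic lower in wild-type day 2 against untreated. It gave 1 cytosolic higher in wild-type day 5 against day 2, 1 cytosolic higher and 1 mitochondrial lower in P248L against wild-type untreated, and 9 cytosolic higher in P248L against wild-type at day 2. There were, too, 1 cytosolic higher and 1 mitochondrial higher in the difference of day 2 responses. With DESeq2 size factors in edgeR there were 1 mitochondrial lower in P248L day 2 against untreated, 1 cytosolic higher in wild-type day 5 against day 2, and 1 cytosolic higher in P248L against wild-type untreated. It gave 0 cytosolic lower in P248L against wild-type at day 2, and 1 mitochondrial higher in the difference of day 2 responses. With upper-quartile factors there were 2 cytosolic lower in P248L day 2 against untreated, 2 cytosolic lower in wild-type day 2 against untreated, and 0 cytosolic lower in P248L against wild-type at day 2. With no scaling beyond library size there were 2 cytosolic lower and 1 mitochondrial higher in P248L day 2 against untreated, 1 cytosolic higher in P248L day 5 against day 2, and 0 cytosolic higher in wild-type day 5 against untreated. It gave 6 cytosolic higher and 2 cytosolic lower in wild-type day 2 against untreated, 0 mitochondrial higher in wild-type day 5 against day 2, and 1 mitochondrial higher and 1 mitochondrial lower in P248L against wild-type untreated. There were, too, 0 cytosolic lower in P248L against wild-type at day 2, and 0 cytosolic lower and 2 mitochondrial higher in the difference of day 5 responses. With no filter on low counts there were 1 mitochondrial lower in P248L day 2 against untreated, 0 mitochondrial higher in wild-type day 5 against day 2, and 0 cytosolic lower in P248L against wild-type at day 2. It gave 0 cytosolic lower in the difference of day 5 responses. With both-strand counts there were 0 mitochondrial higher in wild-type day 5 against day 2. Without P248L untreated library 1 and P248L day 2 library 3 together there were 0 cytosolic lower and 2 mitochondrial higher in P248L day 2 against untreated, 2 cytosolic lower in wild-type day 2 against untreated, and 1 cytosolic higher in wild-type day 5 against day 2. It gave 1 cytosolic higher and 1 mitochondrial higher in P248L against wild-type untreated, 0 cytosolic lower in P248L against wild-type at day 2, and 2 cytosolic lower and 1 mitochondrial lower in P248L against wild-type at day 5. There were, too, 1 mitochondrial higher in the difference of day 2 responses, and 1 mitochondrial higher and 1 mitochondrial lower in the difference of day 5 responses. In fits of only the libraries compared there were 5 cytosolic higher, 0 cytosolic lower, 0 mitochondrial higher and 0 mitochondrial lower in P248L day 2 against untreated, 1 cytosolic higher in P248L day 5 against day 2, and 2 cytosolic lower in wild-type day 2 against untreated. It gave 1 cytosolic higher in wild-type day 5 against day 2, 1 cytosolic higher and 1 mitochondrial higher in P248L against wild-type untreated, and 1 cytosolic higher, 0 cytosolic lower and 2 mitochondrial higher in P248L against wild-type at day 2. There were, too, 2 cytosolic lower and 1 mitochondrial lower in P248L against wild-type at day 5, and 1 mitochondrial higher in the difference of day 5 responses. At an adjusted p under 0.01 there were 0 cytosolic lower, 1 mitochondrial higher and 1 mitochondrial lower in P248L day 2 against untreated, 0 mitochondrial higher in wild-type day 5 against day 2, and 1 mitochondrial higher in P248L against wild-type untreated. It gave 0 cytosolic higher, 0 cytosolic lower and 4 mitochondrial higher in P248L against wild-type at day 2, 2 mitochondrial higher in P248L against wild-type at day 5, and 9 cytosolic higher and 0 cytosolic lower in the difference of day 5 responses. 

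The replicate numbers were also used as a block, in all groups and, as an alternative chosen after seeing the data, in P248L untreated and day 2 cells only. With the replicate number as a block there were 1 mitochondrial lower in P248L against wild-type untreated, 0 cytosolic lower in P248L against wild-type at day 2, and 1 mitochondrial higher in the difference of day 2 responses. In all it lost 3 of 212 calls. With that block in a fit of only P248L untreated and day 2, there were 0 cytosolic lower, 1 mitochondrial higher and 1 mitochondrial lower in P248L day 2 against untreated. That fit lost 9 of 20 calls and called 9 cytosolic members higher. Among the groups compared, these 2 were the ones in which all 3 same-numbered pairs correlated above 0.1. P248L day 5 and wild-type day 2, which were not compared, also did so (r = 0.29, 0.11 and 0.21).

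Leaving out 1 library at a time gave 0 to 2 cytosolic lower, 2 to 6 mitochondrial higher and 1 to 4 mitochondrial lower in P248L day 2 against untreated, and 1 to 2 cytosolic higher and 0 to 1 mitochondrial higher in P248L day 5 against day 2. The range was 1 to 2 cytosolic lower in wild-type day 2 against untreated, and 0 to 1 cytosolic higher and 0 to 1 mitochondrial higher in wild-type day 5 against day 2. The range was 0 to 1 cytosolic higher, 1 to 3 mitochondrial higher and 0 to 1 mitochondrial lower in P248L against wild-type untreated, and 2 to 5 cytosolic higher and 0 to 1 cytosolic lower in P248L against wild-type at day 2. The range was 1 to 2 cytosolic lower, 2 to 4 mitochondrial higher and 0 to 1 mitochondrial lower in P248L against wild-type at day 5, and 0 to 1 cytosolic higher and 0 to 2 mitochondrial higher in the difference of day 2 responses. The range was 0 to 1 cytosolic lower and 0 to 1 mitochondrial higher in the difference of day 5 responses. Without 1 library 10 to 15 cytosolic members were higher in the difference of the day 5 responses.

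With no scaling the median of all genes moved by -0.44 at wild-type day 5 against untreated, -0.27 at wild-type day 5 against day 2, -0.22 at P248L day 5 against untreated, -0.17 at wild-type day 2 against untreated, -0.12 at P248L day 5 against day 2, 0.12 in P248L against wild-type at day 5 and 0.21 in the difference of the day 5 responses. DESeq2 size factors moved it by 0.12 and 0.11 at wild-type day 5 against untreated and against day 2. The share of called genes that were higher was 34.4% with no scaling and 46.3% with TMM at P248L day 2 against untreated. These shares were 34.4% and 48.9% at wild-type day 5 against untreated, 36.0% and 50.4% at wild-type day 2 against untreated, and 40.5% and 51.0% at wild-type day 5 against day 2. They were 35.8% and 47.7% in P248L against wild-type untreated, and 72.7% and 54.6% in the difference of the day 5 responses. With 3 libraries a group, the least covered member, Ears2, had 32 reads in its lowest library. In the difference of the day 5 responses 37% of simulated 2-fold changes were recovered, in a setting where far fewer genes changed than in the data.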
